A study of Homo sapiens with 2 samples.

Results

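The zinc finger genes of chromosome 19 were examined in U87MG, an established line from a human glioblastoma, after a week of growth as spheres under stem cell conditions. Members were the protein-coding genes of chromosome 19 whose symbol is ZNF followed by a digit, 249 of 19951 protein-coding genes and of 58735 genes in all. The rule itself uses no measured value. Of these, 239 carry the zf-C2H2 transcription factor label in the deposited table, and 3 have names of readthrough genes that join neighbouring loci. The cells carried a lentiviral pGIPZ control shRNA or a lentiviral shRNA against TRIP13, an AAA+ ATPase that acts in the spindle checkpoint. Both groups shared the same line, the same culture and puromycin selection of stable clones. The sources used here give neither the number of clones nor the sequence of the shRNA. With 1 library in each group there is no replicate check, no test and no p-value, so the values compare the libraries and not the conditions. The comparison asks how expression differs when TRIP13 is targeted.

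The level of TRIP13 itself went against the label. It had 1593 reads with the TRIP13 shRNA label and 819 in the control library, a ratio of 1.95 (95% counting interval 1.79 to 2.12). These are 23.1 and 11.9 FPKM (fragments scaled to exon length in kilobases and, here, to a total common to both libraries). Directions below are therefore between libraries as labelled. The control library held 18871063 reads and the library labelled TRIP13 shRNA 19903836, and the deposited scale leaves their ratio of 1.055 in place. Below, a pair of values joined by against gives the library labelled TRIP13 shRNA first. Of 8 glioma stem and neural markers 4 passed a mean FPKM of 1: VIM stood at 427 against 442 FPKM and CD44 at 112 against 115, whereas NES was at 2.21 against 5.23 (read ratio 0.423, 0.362 to 0.493) and OLIG2 at 0.339 against 2.72 (0.124, 0.0760 to 0.194). GFAP had 28 reads against 92, while SOX2 and PROM1 had at most 5 reads in either library and MSI1 had none. The summed levels of markers of other cell types were all lower with the TRIP13 shRNA label. Those of 5 macrophage and microglia markers came to 1.002 against 4.89 FPKM, with 1 of 5 passing and AIF1 and CX3CR1 at 0 in both libraries. The 4 endothelial markers summed to 2.88 against 5.24 FPKM (1 of 4 passing), the 4 fibroblast and pericyte markers to 31.3 against 50.9 (3 of 4), the 4 neuronal markers to 8.14 against 10.03 (3 of 4) and the 3 oligodendrocyte markers to 0.108 against 0.229 (none, MOG at 0 in both). Their part in the results below was not tested.

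Most ZNF genes of this chromosome encode DNA-binding proteins with a row of C2H2 zinc fingers, and many of these carry a KRAB domain at the amino end. The KRAB domain binds TRIM28 (KAP1), which brings the histone methyltransferase SETDB1 and heterochromatin proteins to the bound DNA, and retroelements are a common target. The genes arose by repeated local duplication and stand in clusters along the chromosome. The bodies of many of them are themselves covered by the heterochromatin mark that SETDB1 lays down, in part through ZNF274.

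A cluster was taken to end where the starts of neighbouring members lay over 1 Mb apart, which gave 16 clusters, 9 of them with 5 or more members and 238 members between them. A pattern of the KRAB A box was found in an annotated coding sequence of 158 members. A wider form of the pattern, chosen after seeing the data because it also takes the variant boxes of the cluster from ZNF575 to ZNF296, was found in 188. A coding sequence without a match may still encode the domain. The members had a median of 12 fingers and at most 36.

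The promoters show how far the clusters differ and how alike their members are. RefSeq windows of GRCh38.p14 ran from 250 bases before to 50 after the gene start. They were matched by Ensembl gene identifier, or else by symbol, for 217 members. The motif CCAAT, the box bound by NF-Y, was searched on both strands like every motif here. It stood in 28 of 29 promoters of the cluster from ZNF101 to ZNF254 (96.6%), in 92.0% of 25 in the cluster from ZNF653 to ZNF791, in 61.1% of 54 in the cluster from ZNF628 to ZNF446 and in 34.6% of all 34943 promoters. The ETS-type motif CCGGAAGT had the opposite order in these clusters, with 0 of 29, 1 of 25 and 26 of 54 promoters, beside 4.11% of all. The motif ACTACA, part of the ZNF143 element, was in none of the 29, in 12 of 20 promoters of the cluster from ZNF575 to ZNF296, in 53.7% of the 54 and in 8.46% of all. TTCCCAG, which can follow ACTACA in that element, was in 14 of the 20 and 10.9% of all. A median of 10 CpG sites was counted in the 29 promoters, against 20 over all matched members and 14 over all promoters. A match describes the letters of the window and is not a measured binding site.

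The next sequences are shown because their genes belong to the cluster from ZNF101 to ZNF254, where many members had a few reads in the control library and hardly any in the other. They are the exon-free stretches before the gene start, 5′ to 3′ on the strand of the gene, at chr19:21141790-21142023 (plus strand), chr19:21329426-21329660 (minus), chr19:23395561-23395721 (minus) and chr19:23687221-23687462 (minus) of GRCh38.p14. Capitals mark the longest run of bases shared by all 4, found by comparing them after seeing the data.
ZNF431: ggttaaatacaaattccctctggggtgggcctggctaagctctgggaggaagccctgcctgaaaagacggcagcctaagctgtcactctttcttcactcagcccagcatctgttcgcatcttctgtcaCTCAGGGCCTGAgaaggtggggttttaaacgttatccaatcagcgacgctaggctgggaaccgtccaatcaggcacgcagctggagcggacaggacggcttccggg
ZNF708: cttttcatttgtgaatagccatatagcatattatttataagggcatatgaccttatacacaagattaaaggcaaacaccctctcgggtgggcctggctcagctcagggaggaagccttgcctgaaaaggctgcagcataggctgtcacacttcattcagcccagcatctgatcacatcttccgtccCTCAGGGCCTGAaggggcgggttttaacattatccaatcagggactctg
ZNF91: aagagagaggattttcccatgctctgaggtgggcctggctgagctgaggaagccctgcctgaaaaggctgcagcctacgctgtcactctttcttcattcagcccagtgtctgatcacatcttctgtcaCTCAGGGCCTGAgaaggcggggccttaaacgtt
ZNF675: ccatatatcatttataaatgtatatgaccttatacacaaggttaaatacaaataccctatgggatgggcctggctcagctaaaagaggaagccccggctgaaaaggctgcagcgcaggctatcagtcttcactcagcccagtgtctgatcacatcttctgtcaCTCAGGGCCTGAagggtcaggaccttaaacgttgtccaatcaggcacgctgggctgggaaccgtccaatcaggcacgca
The run CTCAGGGCCTGA stood in 11 of the 29 promoters of that cluster (37.9%), in 0 of the other 188 member promoters, and in 23 of all 34943 (0.0658%). The 11 include the 4 in which the run was found. Among members of the cluster with reads in the control library only it stood in 4 of 13 (30.8%), no larger a share than in the cluster. The 13 include ZNF708, ZNF91 and ZNF675, from which the run was taken, so that share was in part fixed in advance. Aligned over the window, the promoter of ZNF431 was identical to that of ZNF91 at 89.3% of 290 aligned bases, with 20 bases in gaps. The values were 86.9% of 237 with 126 in gaps for ZNF708 and 86.2% of 260 with 80 in gaps for ZNF675. ZNF616 and ZNF787, a pair from different clusters, aligned at 61.8% of 259 with 82 in gaps.

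Expression was uneven along the chromosome. Of the 249 members 83 reached a mean FPKM of 1, 125 had reads but stayed below it, and 41 had no read in either library. A count of 0 allows up to 3 reads, which in a gene of 1 kb is 0.155 FPKM. The last cluster, from ZNF628 to ZNF446 (positions 55476332 to 58481230), held 34 of the 83 members that passed, out of its 59. The cluster from ZNF575 to ZNF296 (43525497 to 45076588) held 13 of 24 and the one from ZNF557 to ZNF846 (7069444 to 9793180) 8 of 16. The cluster from ZNF175 to ZNF331 (51571298 to 53580269) had 8 passing of 40. By contrast 1 of 37 passed in the cluster from ZNF101 to ZNF254 (19668796 to 24129961), which was ZNF101 itself at its edge, and 1 of 26 in the cluster from ZNF565 to ZNF573 (36182060 to 37817300), which was ZNF146. In these last 2 clusters 10 and 12 members had no read at all. CCGGAAGT was found in 31.1% of the promoters of 74 passing members and in 8.82% of 34 members with no read, and ACTACA in 33.8% and 11.8%, whereas GGGCGG (67.6% and 67.6%) and CCAAT (47.3% and 55.9%) were about as frequent in both. These shares follow the clusters, and were not separated from them.

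**Figure D1:**
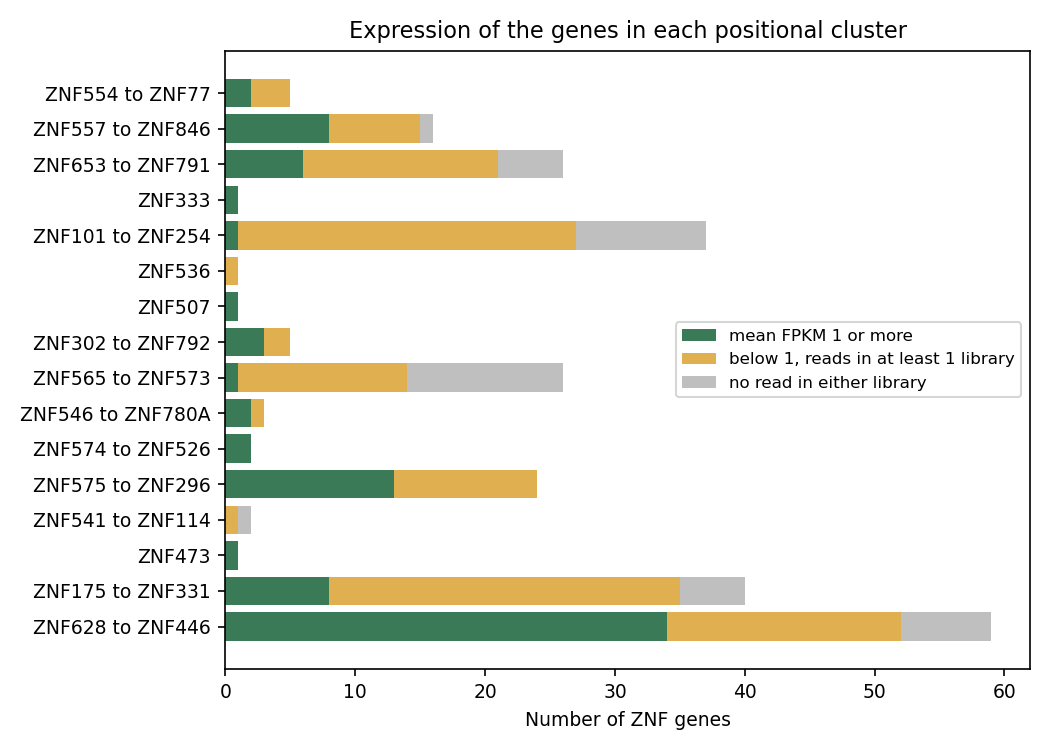
Number of zinc finger genes in each of the 16 positional clusters of chromosome 19, ordered along the chromosome, split into genes at or above a mean FPKM of 1, genes below it with reads in at least 1 library, and genes with no read. The last cluster holds 34 of the 83 genes that passed, whereas the clusters from ZNF101 and from ZNF565 hold 1 each.

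Members were weakly expressed and differed little in size between the libraries, with more of them lower than higher in the library labelled TRIP13 shRNA. The log2 ratio used below is that of FPKM + 1 in the library labelled TRIP13 shRNA over FPKM + 1 in the control library, which understates the differences of weak genes. Over the 83 members its median was -0.06, with 47 below 0, against 39.6% of 10671 protein-coding genes below 0 and a median of 0.12. None of the 83 was past a log2 ratio of 1 (2.17% of all genes were) or of -1 (4.19% were). Rescaling to TPM moved the median of all genes to -0.00617 and that of the members to -0.216, and setting the median ratio to 1 moved them to -0.00168 and -0.154. The members thus lay below all genes by -0.210 and -0.152 on these scales, against -0.182 on the deposited one. The counting interval of the read ratio lay above the ratio of the totals for 14 members and below it for 32, against 43.2% and 34% of all genes. Without the added 1, a setting chosen after seeing the data, 123 members with 50 or more reads held 3 at a ratio of 2 or more (4.59% of all such genes) and 8 at 0.5 or less (8.8%). The 182 members whose loci, introns included, overlap another locus include 52 of those that passed. Over 10% of exon length was shared with other genes in 27 of the 83, and the median share was 0.838%. Since the strand setting is not given, reads on shared exon bases cannot be told apart from those of the other gene.

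**Figure D2:**
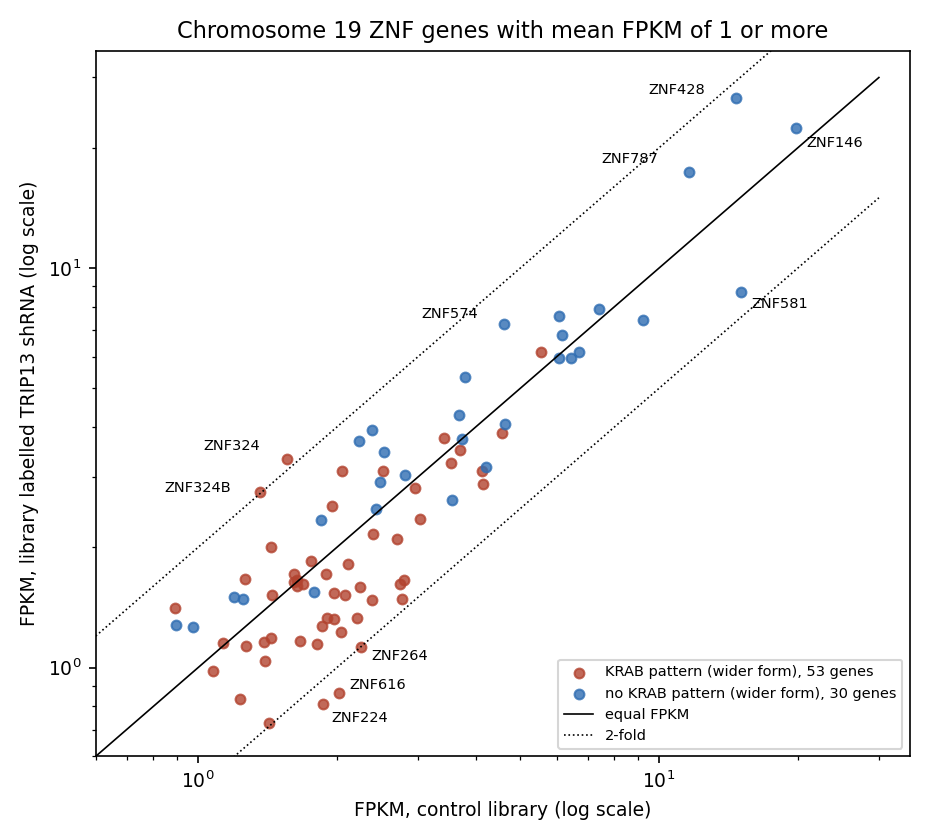
FPKM in the control library (x, log scale) and in the library labelled TRIP13 shRNA (y, log scale) for the 83 members that passed the level filter, coloured by the wider KRAB pattern; the solid line marks equal FPKM and the dotted lines a 2-fold difference. The genes with the highest levels, such as ZNF146 and ZNF428, lack the pattern, and most genes with it lie below 5 FPKM.

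Other gene sets place these values. The 163 ZNF genes of other chromosomes past the filter, of 265, had a median log2 ratio of -0.01, with 1 past 1 and 1 past -1. That median was -0.111 by TPM and -0.127 with the median ratio set to 1, and turned to 0.0481 with overlapping loci left out. The 606 passing protein-coding genes of chromosome 19 that are no members, of 1223, had a median of 0.14, and the 52 of them that lie inside the clusters had 0.09 (-0.0794 by TPM and -0.0107 with the median ratio set to 1). Of those 52, 2 carry the zf-C2H2 label under another symbol, and the other 50 had 0.07. Part of the distance goes with level. Among genes of 1 to 2 FPKM the median was -0.14 for 39 members and -0.06 for 1206 protein-coding genes, at 2 to 5 FPKM it was -0.00 for 31 members and 0.02 for 2473, and at 5 FPKM or more 0.13 for 13 members and 0.19 for 6992. In the same bands the chromosome 19 non-members had -0.03 (55 genes), -0.17 (100) and 0.22 (451). At 2 to 5 FPKM these non-members thus lay below the members. The ZNF genes of other chromosomes had -0.00 (46), -0.03 (73) and -0.00 (44).

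Members with and without a match of the KRAB pattern differed in their values. With the wider pattern 37 of 53 passing members had a log2 ratio below 0 and the median was -0.15, and the counting interval lay below the ratio of the totals for 26 and above it for 5. Without it 10 of 30 were below 0, the median was 0.15, and the interval lay below for 6 and above for 9. The stricter pattern gave medians of -0.13 for 44 members and 0.08 for 39. After rescaling to TPM these medians were -0.240 (66 members) and -0.159 (57), and -0.220 and -0.0417 with the median ratio set to 1. The value without the pattern thus turned negative on both scales and stayed above the value with it. Without a filter on level the medians were -0.0502 (126 members) and -0.0341 (82), a much smaller distance. Summed over all 188 members with the wider pattern, passing or not, 12821 reads in the library labelled TRIP13 shRNA stood against 15387 in the control library, a ratio of 0.833 (0.814 to 0.853). Over the 61 without it 12938 stood against 11801, a ratio of 1.10 (1.07 to 1.12), where the ratio of the totals is 1.055. Much of that difference lies in ZNF428 (930 against 513) and ZNF787 (1240 against 826). Among passing members without the wider pattern the ratio was 1.16 (1.12 to 1.20) for the 12 at 5 FPKM or more, which include both. It was 1.03 (0.986 to 1.07) for 13 at 2 to 5 FPKM and 1.14 (1.01 to 1.29) for 5 at 1 to 2 FPKM. By level the wider pattern gave medians of -0.19 for 34 with and 0.19 for 5 without at 1 to 2 FPKM, and -0.10 for 18 and 0.17 for 13 at 2 to 5 FPKM. With the stricter pattern the distance at 1 to 2 FPKM was small, at -0.16 for 27 and -0.11 for 12 (read ratios 0.802 and 0.829), and at 2 to 5 FPKM the medians were -0.10 for 16 and 0.17 for 15. At 5 FPKM or more the 1 member with either pattern had 0.13 and the 12 without 0.10. The distance at the lowest levels thus depends on which pattern is used. On other chromosomes the medians were -0.07 for 36 ZNF genes with the wider pattern and -0.00 for 127 without. Members with more than 12 fingers had a median of -0.16 (31 genes), those with 9 to 12 -0.03 (26) and those with up to 8 0.00 (26), the last turning to -0.134 by TPM and -0.0898 with the median ratio set to 1. Number of fingers, KRAB class and level go together in these genes and were not separated further.

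**Figure D3:**
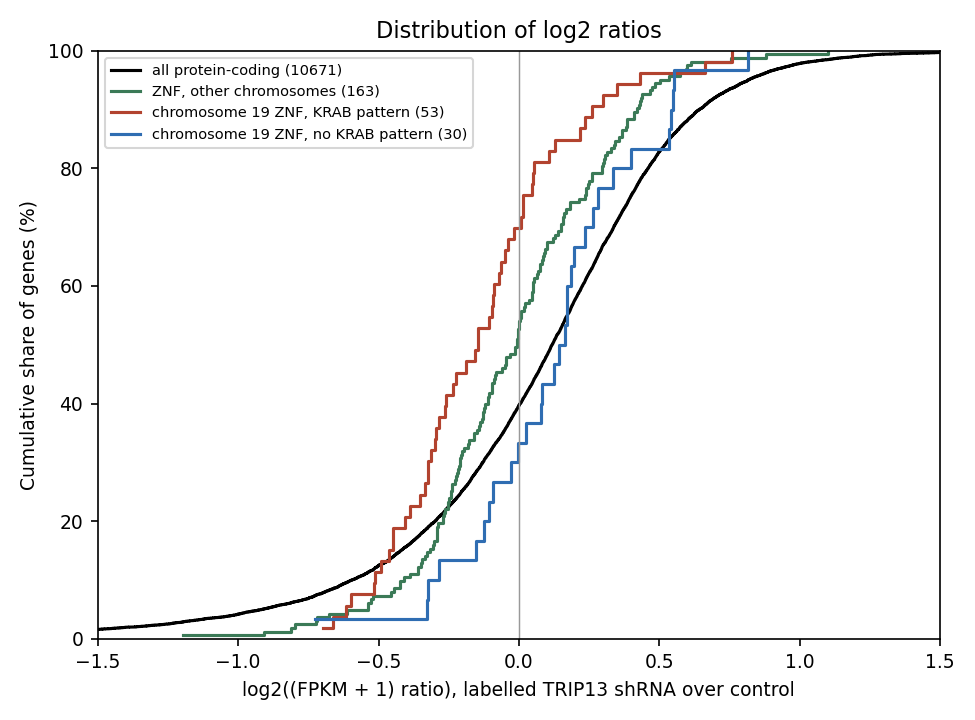
Cumulative share of genes (y, percent) against the log2 ratio (x) for all 10671 protein-coding genes past the filter, 163 ZNF genes of other chromosomes, and the chromosome 19 members with (53) and without (30) the wider KRAB pattern. The curve of members with the pattern lies to the left of the curve without it, with medians of -0.15 and 0.15.

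Along the chromosome, values differed between clusters and also within them. Cluster medians were -0.08 from ZNF557 to ZNF846 (8 passing members), -0.24 from ZNF653 to ZNF791 (6), -0.15 from ZNF575 to ZNF296 (13, turning to 0.172 over the 7 with 10% or less shared sequence), -0.26 from ZNF175 to ZNF331 (8) and -0.02 from ZNF628 to ZNF446 (34). In the cluster from ZNF175 to ZNF331 7 of 8 were below 0, and all 40 of its members together had 2179 reads against 2969, a ratio of 0.734 (0.694 to 0.776). Inside the cluster from ZNF575 to ZNF296 the 8 members that start in the 43 Mb interval had 1818 reads against 1454, a ratio of 1.25 (1.17 to 1.34). The 15 members of the next interval had 1062 against 1542, a ratio of 0.689 (0.636 to 0.745). In the last cluster the ratio was 1.001 for the 7 members of the 55 Mb interval, 1.19 for the 9 of the next, 0.854 (0.818 to 0.892) for the 31 of the 57 Mb interval and 1.13 (1.06 to 1.21) for the 12 at the chromosome end. Some of these sums rest on 1 gene of high level, such as ZNF428 in the 43 Mb interval and ZNF787 in the 56 Mb interval.

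Runs of passing members on one side of 0 reached a length of 6. Such runs below 0 went from ZNF155 to ZNF112, from ZNF175 to ZNF766 and from ZNF444 to ZNF304, and 1 of 5 members from ZNF627 to ZNF791. The longest run above 0 held the 4 members from ZNF837 to ZNF324. As a description only, the log2 ratio of a member and that of the next passing member of its cluster had a Pearson correlation of 0.11 over 69 pairs, which share members, libraries and in places reads. With members of over 10% shared exons or 50-base words left out and the pairs formed again, it was 0.08 over 42 pairs. For passing members with no other member between them it was 0.18 over 42 pairs.

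**Figure D4:**
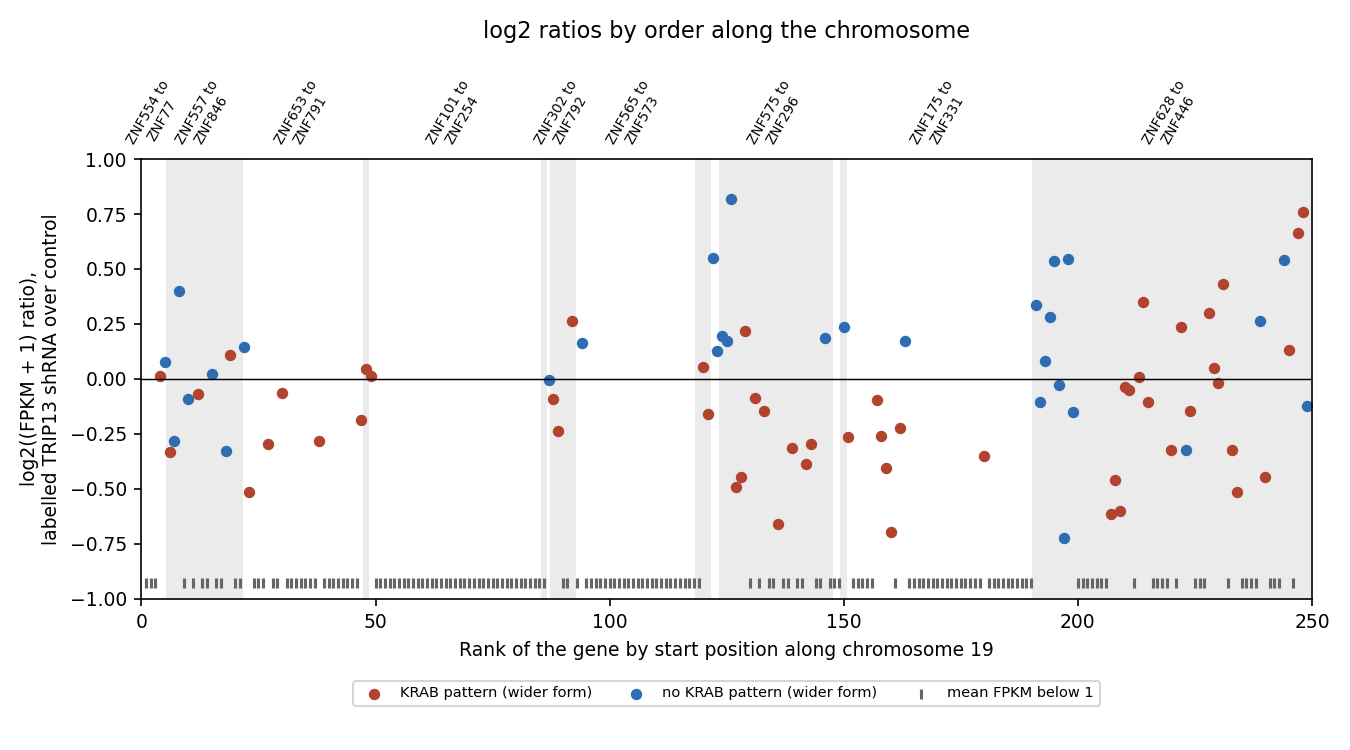
log2 ratio (y) of the 83 passing members against their rank by start position along chromosome 19 (x), with grey and white bands for alternate clusters, colours for the wider KRAB pattern and ticks at the foot for members with a mean FPKM below 1. Members from ZNF175 to ZNF766 lie below 0, and the 4 from ZNF837 to ZNF324 near the right edge lie above it.

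Of the 36 passing members higher in the library labelled TRIP13 shRNA, 20 lacked the wider KRAB pattern, as did 30 of all 83 passing members. ZNF428 had 930 reads against 513, or 26.6 against 14.7 FPKM, a ratio of 1.81 (1.63 to 2.02) and the highest log2 ratio of the 83, 0.82. It is a small protein with 1 finger, and it shares 27.6% of its exon length with other loci. ZNF574, with 16 fingers, had 7.24 against 4.62 FPKM (ratio 1.57, 1.38 to 1.78). ZNF787 had 17.4 against 11.6 FPKM (1.501, 1.37 to 1.64). ZNF784 had 3.69 against 2.23 FPKM and ZNF837 3.93 against 2.39, both with a log2 ratio of 0.54. ZNF414 (5.33 against 3.80 FPKM) and ZNF628 (3.46 against 2.53) had log2 ratios of 0.40 and 0.34. All 7 of these lack the wider pattern. Of the 12 highest members 5 carry it: ZNF324, ZNF324B, ZNF587B, ZNF17 and ZNF776. ZNF587B stood at 3.11 against 2.05 FPKM, with 24.1% of its 50-base words found in other genes, ZNF17 at 1.41 against 0.892 and ZNF776 at 2.004 against 1.44.

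ZNF324 and its neighbour ZNF324B, paralogs with 9 fingers each, were both higher at the end of the chromosome. ZNF324 had 366 reads against 171, or 3.33 against 1.56 FPKM, a ratio of 2.14 (1.78 to 2.58). ZNF324B had 215 reads against 107, or 2.74 against 1.37 FPKM, a ratio of 2.01 (1.59 to 2.56). In ZNF324 33.5% of 50-base words are found in other genes, and in ZNF324B 13.1%, so part of their reads may have been counted for either. ZNF132 (82 reads against 40) was named after its values were seen. With ZNF324 and ZNF324B it makes up the 3 members at a plain ratio of 2 or more among those with 50 or more reads. The stretches before the starts of ZNF324 and ZNF324B are shown because both genes of the pair were higher. They lie on the plus strand of GRCh38.p14 at chr19:58466830-58467044 and chr19:58451372-58451603. Over the whole window 84.1% of 295 aligned bases were identical. Capitals mark CCAAT on either strand, found in both, and in ZNF324 also CACGTG, a match of ACTACA and one of TTCCCAG.
ZNF324: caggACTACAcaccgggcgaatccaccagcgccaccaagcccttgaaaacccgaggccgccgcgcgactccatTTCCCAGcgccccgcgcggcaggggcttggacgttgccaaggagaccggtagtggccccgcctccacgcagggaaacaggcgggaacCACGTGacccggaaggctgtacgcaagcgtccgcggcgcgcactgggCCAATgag
ZNF324B: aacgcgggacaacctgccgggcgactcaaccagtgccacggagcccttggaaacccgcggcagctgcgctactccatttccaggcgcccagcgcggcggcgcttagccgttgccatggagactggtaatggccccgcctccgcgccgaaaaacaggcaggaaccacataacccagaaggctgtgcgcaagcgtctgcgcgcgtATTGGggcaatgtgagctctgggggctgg
ZNF264 and ZNF787 of the same cluster both hold the motif CCGGAAGT and lay on opposite sides of 0, at log2 ratios of -0.62 and 0.55. Their stretches are chr19:57191250-57191499 (plus strand) and chr19:56121296-56121545 (minus), and capitals mark GGGCGG on either strand, matches of CCGGAAGT and one of ACTACA, with 2 overlapping matches of CCGGAAGT in ZNF787.
ZNF264: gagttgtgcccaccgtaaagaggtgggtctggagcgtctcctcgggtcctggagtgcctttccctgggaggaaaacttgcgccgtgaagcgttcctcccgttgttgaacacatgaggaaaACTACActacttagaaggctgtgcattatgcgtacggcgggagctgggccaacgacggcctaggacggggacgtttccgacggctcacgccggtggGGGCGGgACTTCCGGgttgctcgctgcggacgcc
ZNF787: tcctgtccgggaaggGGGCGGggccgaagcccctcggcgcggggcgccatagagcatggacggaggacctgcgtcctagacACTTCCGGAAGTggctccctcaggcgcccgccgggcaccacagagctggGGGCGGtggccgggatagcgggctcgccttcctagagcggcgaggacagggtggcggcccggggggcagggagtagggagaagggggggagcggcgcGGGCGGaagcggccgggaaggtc
Over all matched members CCGGAAGT was in 31.7% of 41 promoters with a log2 ratio below 0 and in 30.3% of 33 above it, and ACTACA in 34.1% and 33.3%, about the same share in both directions.

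Among the 12 lowest members 11 carried the wider KRAB pattern, as did 53 of all 83 passing members. The exception was the lowest of all, ZNF581, a protein with 3 fingers, at 294 reads against 508, or 8.74 against 15.1 FPKM, a log2 ratio of -0.73. ZNF581 overlaps ZNF580 and shares 23.4% of its exon length. ZNF580 itself had 5.94 against 6.08 FPKM, a ratio of 0.978 (0.833 to 1.15). ZNF616 had 82 reads against 192, or 0.865 against 2.03 FPKM, 2.34-fold lower (1.80 to 3.07). ZNF224, a repressor of metabolic genes and a partner of WT1, had 0.813 against 1.87 FPKM, 2.29-fold lower (1.83 to 2.89), with 40.5% of its exon length shared. ZNF224 has the wider KRAB pattern but not the stricter one, which 44 of the 83 passing members had. ZNF264 had 273 reads against 548 and 1.12 against 2.26 FPKM, and its neighbours ZNF805 (1.33 against 2.21) and ZNF460 (1.49 against 2.77) lay on the same side. ZNF627 stood at 1.62 against 2.74 FPKM, ZNF283 at 0.728 against 1.43, ZNF404 at 1.23 against 2.04 and ZNF841 at 2.89 against 4.15. ZNF274, which recruits SETDB1 to the bodies of zinc finger genes, had 239 reads against 385, or 1.48 against 2.38 FPKM, 1.61-fold lower (1.37 to 1.90). Below the level filter ZNF558, a repressor of the mitophagy gene SPATA18, had 44 reads against 135, 3.07-fold lower (2.17 to 4.42), ZNF8 112 against 225 and ZNF546 118 against 178.

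Members with the highest levels and those at the centre complete the range. ZNF146, which consists of 10 fingers and no KRAB domain, was at 22.4 against 19.9 FPKM, a ratio of 1.13 (1.05 to 1.21) that includes the ratio of the totals. ZNF358 had 7.41 against 9.23 FPKM (ratio 0.803, 0.687 to 0.938). Nearest to the median lay ZNF700 (3.50 against 3.70 FPKM), ZNF559 (0.981 against 1.08) and ZNF304 (2.82 against 2.96). Their counting intervals included the ratio of the totals. The next members had the lowest or highest log2 ratio of their cluster. Among these, ZNF57 (1.15 against 1.13 FPKM), ZNF77 (3.03 against 2.82) and ZNF653 (1.49 against 1.25) also had intervals that included the ratio of the totals. So did ZNF101 (1.64 against 1.61), ZNF792 (2.54 against 1.95) and ZNF480 (2.92 against 2.49). ZNF557 (1.27 against 1.86 FPKM) and ZNF181 (1.04 against 1.40) had intervals below the ratio of the totals.

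Of 8 members known to bind retroelements, ZNF417 and ZNF587 passed the level filter, and both had a counting interval below the ratio of the totals, as 34% of all passing genes did. Of the 6 below the filter ZNF765, ZNF93 and ZNF808 had such an interval, which 21.4% of 5581 protein-coding genes with reads below the filter had, and 37 of 125 members. None of the 8 had an interval above it (5.68% of all genes below the filter). ZNF417 and ZNF587, neighbours and paralogs that bind HERV-K, had 135 reads against 228 and 442 against 589, ratios of 0.592 (0.475 to 0.736) and 0.7504 (0.662 to 0.850). They share 37.6% and 18.8% of their 50-base words with other genes, and the paralog ZNF587B, just before them on the chromosome, was the one with the higher level in the library labelled TRIP13 shRNA. ZNF765, which binds LINE elements, had 123 reads against 158 (0.778, 0.610 to 0.992). ZNF649, another binder of LINE elements, had 37 against 34, which the depth could not tell from no difference. ZNF93, a repressor of LINE elements, had 1 read against 11, ZNF91, a repressor of SVA elements, 0 against 4, ZNF534, a binder of HERV-H, 0 against 5, and ZNF808, a repressor of MER11 elements, 0 against 7. Among other studied members ZNF331, an imprinted gene, was read 12 times in the control library and not in the other. By its counting interval it was at least 2.78-fold lower. ZNF675, an inhibitor of TRAF6 signalling, had 0 against 12. ZNF350, a partner of BRCA1, had 37 against 35 reads and ZNF296 18 against 21. No read was found for ZNF382, a gene often silenced in tumours, or for ZNF568, whose mouse homolog represses a placental Igf2 promoter.

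The weakest members showed the widest gap. The 62 members with 1 to 9 reads in both libraries together had 176 reads in the control library and 23 in the other, a ratio of 0.131 (0.0807 to 0.202). All 2644 protein-coding genes of that depth had 3237 against 5737, a ratio of 0.564 (0.540 to 0.589), the 19 ZNF genes of other chromosomes 24 against 33 (0.727, 0.411 to 1.27) and the 180 non-members of chromosome 19 249 against 403 (0.618, 0.525 to 0.725). Of the 62 members 8 had a counting interval of their own below the ratio of the totals and 0 had one above it, against 4.31% and 0.756% of all genes of that depth. The 23 members with 10 to 49 reads had 128 against 364, a ratio of 0.352 (0.285 to 0.431), where all 1593 such genes gave 0.644. The gap closed with level, at 0.872 for the 40 members with at least 50 and under 200 reads (0.776 for all genes) and 0.970 for the 83 with 200 or more (1.06 for all). In sum 58 of 208 detected members (27.9%) had reads in the control library only, against 7.81% of 16252 detected protein-coding genes, and 2 (0.962%) had reads only in the library labelled TRIP13 shRNA, against 2.99%. The deeper library was the one with fewer detected members. The intervals cover counting error only, and the lower marker sums of other cell types in the same library (for fibroblasts and pericytes 31.3 against 50.9 FPKM) stand beside this result. Their part in it was not tested.

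Most of this gap lay in 3 clusters. Among members with 1 to 49 reads, the cluster from ZNF101 to ZNF254 had 16 reads against 190 over 25 genes, a ratio of 0.0842 (0.0472 to 0.140), and 16 of the 25 had none in the library labelled TRIP13 shRNA. The cluster from ZNF175 to ZNF331 had 13 against 157 over 21 genes, a ratio of 0.0828 (0.0431 to 0.146), with 18 of the 21 at none. The cluster from ZNF565 to ZNF573 had 0 against 32 over 12 genes, a ratio of 0 with a counting interval up to 0.122. The 3 protein-coding non-members of such depth inside that last cluster had 0 against 24, whereas 7 noncoding genes there had 21 against 29, a ratio of 0.724 (0.393 to 1.31). Of all 176 non-members inside clusters 21 carry the zf-C2H2 label, and the 3 were not split by it. Other clusters showed a smaller gap or none: 24 against 30 reads over 11 genes from ZNF653 to ZNF791, 19 against 29 over 7 from ZNF628 to ZNF446, 31 against 47 over 3 from ZNF575 to ZNF296 and 7 against 34 over 4 from ZNF557 to ZNF846. ZNF556, alone in its cluster at this depth, went the other way with 26 against 6. Noncoding genes of that depth inside the cluster from ZNF101 to ZNF254 had 13 reads against 33 over 16 genes. Of these 16, 12 had none in the library labelled TRIP13 shRNA. Inside the cluster from ZNF175 to ZNF331 18 noncoding genes had 47 against 75, with 4 at none, and 1 protein-coding non-member had 0 against 12. From ZNF575 to ZNF296 4 non-members had 14 against 56 and 20 noncoding genes 85 against 172. Their ratios, 0.250 and 0.494, were lower than that of the members there (0.660). From ZNF557 to ZNF846 17 non-members had 92 against 73 and 16 noncoding genes 29 against 57.

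**Figure D5:**
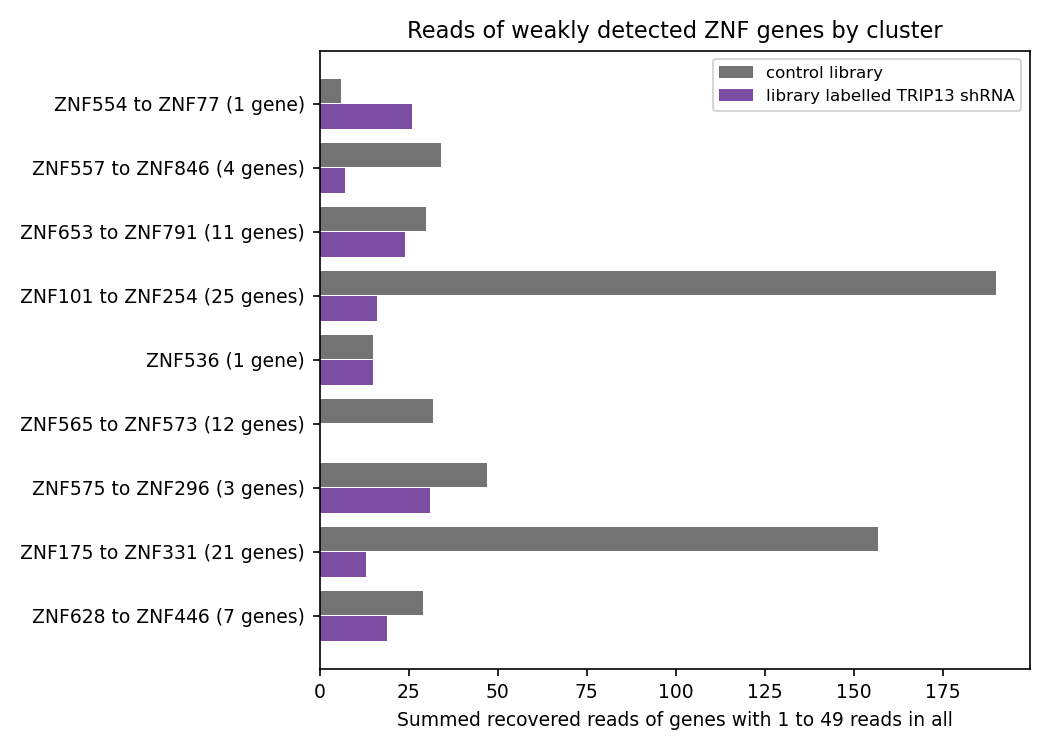
Summed reads (x, linear scale from 0) of members with 1 to 49 reads in both libraries together, by positional cluster, in the control library (grey) and the library labelled TRIP13 shRNA (purple). The clusters from ZNF101, from ZNF565 and from ZNF175 had 190, 32 and 157 reads in the control library and 16, 0 and 13 in the other.

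Single genes of these clusters, named after their values were seen, show what the sums hold. ZNF528 had 45 reads in the control library and none in the other, at least 11.7-fold lower by its counting interval. Its antisense transcript ZNF528-AS1, a noncoding gene that starts on the other strand just before it, had 0 against 17. The bases between both starts are shown because both genes were read in the control library only. They are chr19:52397767-52397848 on the plus strand of GRCh38.p14, and hold none of the motifs that were searched.
ZNF528: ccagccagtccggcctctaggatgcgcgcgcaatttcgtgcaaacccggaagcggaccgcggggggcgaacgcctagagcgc
ZNF431 had 1 read against 45, a ratio of 0.0222 (0.000551 to 0.130), and ZNF714 7 against 35, 5-fold lower (2.19 to 13.3). No read was found in the library labelled TRIP13 shRNA for ZNF738 (14 in the control library), ZNF83 (13), ZNF708 (11) or ZNF600 (11), nor for ZNF229 (10), which lies outside them in the cluster from ZNF575 to ZNF296. ZNF493 had 1 against 11. Not every gene there was near 0, since the neighbour ZNF430 had 48 reads against 79, a ratio of 0.608 (0.415 to 0.881), and ZNF101 at the edge of the same cluster had 208 against 205. ZNF431 and ZNF528 share 5.65% and 0.689% of their 50-base words with other genes.

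The partners through which KRAB proteins act lay on both sides of 0, in about the shares of all genes. All 30 genes of a list of KRAB co-repressor, HUSH and related chromatin genes passed the filter, with a median log2 ratio of 0.10 against 0.12 for all genes and 13 of 30 below 0, and the median turned to -0.00725 by TPM and -0.0282 with the median ratio set to 1. The counting interval lay above the ratio of the totals for 13 (43.2% of all genes) and below it for 10 (34% of all genes). TRIM28 had 112 against 67.9 FPKM, a ratio of 1.66 (1.60 to 1.71). The maintenance methyltransferase DNMT1 had 31.8 against 17.6 FPKM, and UHRF1, which guides it to replicated DNA, 50.3 against 16.4 and the only log2 ratio past 1 in the list, 1.56. At the other end DNMT3A, a de novo methyltransferase, had 0.768 against 1.73 FPKM (log2 ratio -0.63), ATF7IP, the partner of SETDB1, 3.41 against 5.62 (-0.59) and the chromatin remodeller ATRX 3.51 against 5.39 (-0.50). SETDB1 had 4.27 against 4.58 FPKM, a ratio of 0.932 (0.831 to 1.04). TRIM28 lies beyond the last member on the same chromosome end. That member, ZNF446, had a log2 ratio of -0.12 and stands between TRIM28 and the run from ZNF837 to ZNF324.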

How the data were processed

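Total RNA of 2 libraries, 1 per group, was prepared with the NEBNext Ultra kit, per the labels' protocols. The authors deposited FPKM values for 58735 genes in 1 table with gene length, position and biotype. Per the submitters' processing notes the tools were HISAT2 2.0.5, featureCounts 1.5.0-p3 and edgeR, with build hg38. Which annotation and strand setting were used is not given in the sources used here. Positions of 58735 genes equalled those of GENCODE release 29.

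FPKM times gene length was a whole multiple of 1 step for 100% of the values (tolerance 0.01 read), so reads were recovered, and both libraries turned out to be scaled to a common total. A filter of mean FPKM of 1 or more and a pseudocount of 1 were used. With 1 library per group no test was made. Counting intervals are exact 95% Clopper-Pearson intervals of the split of reads. Like the floor of 3 reads they cover counting error only, because without molecular identifiers a read is not an independent molecule. Recovery and interval were tested on simulated data.

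A KRAB pattern was counted if any coding sequence of a gene in GENCODE 29 that began with ATG held it. The number of fingers was the highest count over these sequences. Promoters came from RefSeq GRCh38.p14, matched by Ensembl gene identifier or else by symbol. The rule for named genes took TRIP13, TRIM28, the 12 highest and 12 lowest log2 ratios and the 5 highest levels. It also took the 3 nearest to the median, the studied members, and up to 3 co-repressors at each end. Further picks were the lowest and highest log2 ratio of each cluster of 5 or more and the 3 largest read differences below the filter. Members, lists and the rule were chosen with earlier results of these data known. The wider KRAB pattern, the plain ratio, leaving out genes with shared sequence, and the motifs ACTACA and TTCCCAG were added after seeing the data. Calculations used scipy 1.17.1, pandas 2.3.3 and numpy 2.4.6 under Python 3.11.15, and figures matplotlib 3.10.9.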

Additional observations from a re-analysis of the deposited data

How the results depend on the processing

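The median of the members minus that of all protein-coding genes, -0.182, stayed negative under every alternative tried (-0.217 to -0.0533). The members' own median turned from -0.0634 to 0.126 with a mean FPKM of 5 or more, which left 13 members, and was -0.216 after rescaling to TPM, -0.154 with the median ratio set to 1 and -0.155 for reads with 5 added. The difference from all genes was -0.0533 without a filter and -0.0590 at a mean FPKM of 5 or more. The count past the size rule went from 0 higher and 0 lower to 1 and 2 with a pseudocount of 0.1, 1 and 4 for reads with 5 added, 3 lower after rescaling to TPM, and 3 and 8 for the plain ratio. The median of all protein-coding genes, 0.118, became 0.137 and 0.0737 with pseudocounts of 0.1 and 5, 0.00459 without a filter, 0.185 at a mean FPKM of 5 or more, -0.00617 by TPM, 0.0523 by own totals, -0.00168 with the median ratio set to 1 and 0.0625 for reads with 5 added. That of chromosome 19 non-members became 0.00892 without a filter, 0.219 at 5 FPKM or more, 0.00306 by TPM, 0.0725 by own totals and 0.0169 with the median ratio set to 1. By TPM the medians without the KRAB pattern (-0.159), with up to 8 fingers (-0.134) and of non-members inside the clusters (-0.0794) turned negative. Without a filter the median without the KRAB pattern (-0.0341, beside -0.0502 with it) and that with up to 8 fingers (-0.0208) turned negative too. ZNF genes of other chromosomes had -0.111 by TPM, -0.127 with the median ratio set to 1 and 0.0481 with overlapping loci left out. The cause of these changes was not tested, except that a higher filter tests fewer genes. The median of the cluster from ZNF575 to ZNF296 turned to 0.172 with genes of over 10% shared sequence left out. Of 354 alternative values of 61 named genes 292 stayed inside the counting interval, and of 189 alternative summary values 157 stayed within the spread.

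No paired analysis was possible because a group of 1 library has nothing to pair. Of 62 members with 1 to 9 reads 8 had a counting interval below the ratio of the totals (4.31% of all such genes had one), and the other single differences were not detectable at this depth.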

Other observations

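Noncoding genes of chromosome 19 with names of the same form, such as antisense transcripts and pseudogenes, numbered 32. Of these 18 had no read and 4 had 10 or more. In the order TRIP13 shRNA label, then control, ZNF561-AS1 had 73 and 74 reads and ZNF460-AS1 16 and 16, while ZNF460 itself, next to it on the other strand, stood at 101 and 188. The counting interval lay below the ratio of the totals for 1 of the 32, ZNF528-AS1 (0 against 17 reads), and above it for 0. The 56 passing members on the plus strand had a median log2 ratio of -0.08 and the 27 on the minus strand 0.02, and 42.1% of plus strand members passed the level filter against 23.3% of those on the minus strand.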
